A study of Mus musculus with 15 samples.

Results

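The immediate early transcription factors of mouse left ventricle were followed on 15 gene expression arrays from a study of pressure overload. Members were the probe sets annotated to exactly 1 of the genes Fos, Fosb, Jun, Junb, Jund, Egr1, Atf3, Btg2, Ier2 and Myc. All 10 genes were on the array, with 15 probe sets out of 12422 that were not array controls. The hearts fell into 4 groups by sex and operation: 3 female sham, 6 male sham, 3 female TAC and 3 male TAC. TAC in work on pressure overload usually stands for transverse aortic constriction, a narrowing of the aorta. The sources used here give neither strain, age nor the time from operation to tissue collection, nor whether each array came from a separate animal. The p-values therefore measure the spread between these samples only, which may be technical.

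Immediate early genes are switched on within minutes of a stimulus by transcription factors that are already in the cell, such as serum response factor and CREB, and need no new protein for it. Their mRNAs are short-lived, so that after a single stimulus the level falls back quickly. Fos and Jun proteins pair through leucine zippers to form AP-1, which binds DNA and drives later genes. In the heart, stretch, adrenergic agonists and acute pressure overload are known inducers of Fos, Jun, Egr1 and Myc.

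The arrays give no sequence of their own, and the promoters of 7 of the 10 genes were available from RefSeq (assembly GRCm38.p6). The 250 bases before the annotated start are shown for Fos, whose signal was low throughout, and for Btg2, whose signal varied most between arrays. Capitals mark the core TGACG of the CRE, the element to which CREB and ATF proteins bind, and its full palindrome TGACGTCA. The Fos window lies at chr12:85473640-85473889 on the plus strand and the Btg2 window at chr1:134079156-134079405 on the minus strand.
Fos: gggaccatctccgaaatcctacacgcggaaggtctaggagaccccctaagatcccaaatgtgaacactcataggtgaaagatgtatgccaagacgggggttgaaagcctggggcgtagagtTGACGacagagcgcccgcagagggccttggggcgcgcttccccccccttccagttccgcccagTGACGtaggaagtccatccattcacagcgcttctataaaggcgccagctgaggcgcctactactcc
Btg2: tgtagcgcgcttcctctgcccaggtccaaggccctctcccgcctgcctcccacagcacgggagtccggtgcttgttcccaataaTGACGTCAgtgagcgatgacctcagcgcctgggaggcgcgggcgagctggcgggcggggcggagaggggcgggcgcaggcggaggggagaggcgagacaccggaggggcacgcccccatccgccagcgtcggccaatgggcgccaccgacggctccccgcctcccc

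The full CRE was found on either strand in 1 of the 7 member windows, that of Btg2, and in 1.55% of the 32851 windows of this length in the table. The core TGACG, which also lies within the full CRE, was found in 5 of 7 (Fos, Fosb, Junb, Atf3 and Btg2) and in 17.8% of all windows. The GC box GGGCGG was present in 5 of 7 and in 32.7% of all. The AP-1 site TGACTCA, the CArG box and the E-box CACGTG were not found in these 7 windows on either strand, and they occurred in 4.46%, 1.47% and 6.02% of all windows. Sites more than 250 bases before the start were not searched, and Egr1, Ier2 and Myc had no window. Whether these genes have such sites elsewhere was therefore not tested. A match of letters is a description of the window and shows no binding.

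Across the members, no difference between TAC and sham hearts passed the test. Of the 15 probe sets, 10 for 8 genes were bright enough to be tested, and 4 of these had a higher and 6 a lower mean with TAC averaged over the sexes. Their median log2 difference was -0.05, beside -0.03 over all 7453 tested probe sets. At an adjusted p under 0.05 limma called 0 of the 10, where it called 0.322% of all tested probe sets. At such a share few or none of any 10 would be called. At an unadjusted p under 0.05 the count was 2 of 10, beside 7.51% of all, and the exact permutation test also gave 2 of 10, beside 8.09% of all. After adjustment over all probe sets the exact permutation test called none of the 7453 (0%), so its 0 among the members says nothing about them. The operation itself was visible on the same arrays, since Nppa, Acta1 and Ankrd1, genes of the hypertrophic response, rose by log2 changes of 2.83 ± 0.22, 2.11 ± 0.14 and 1.10 ± 0.11 (SE, limma).

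**Figure D1:**
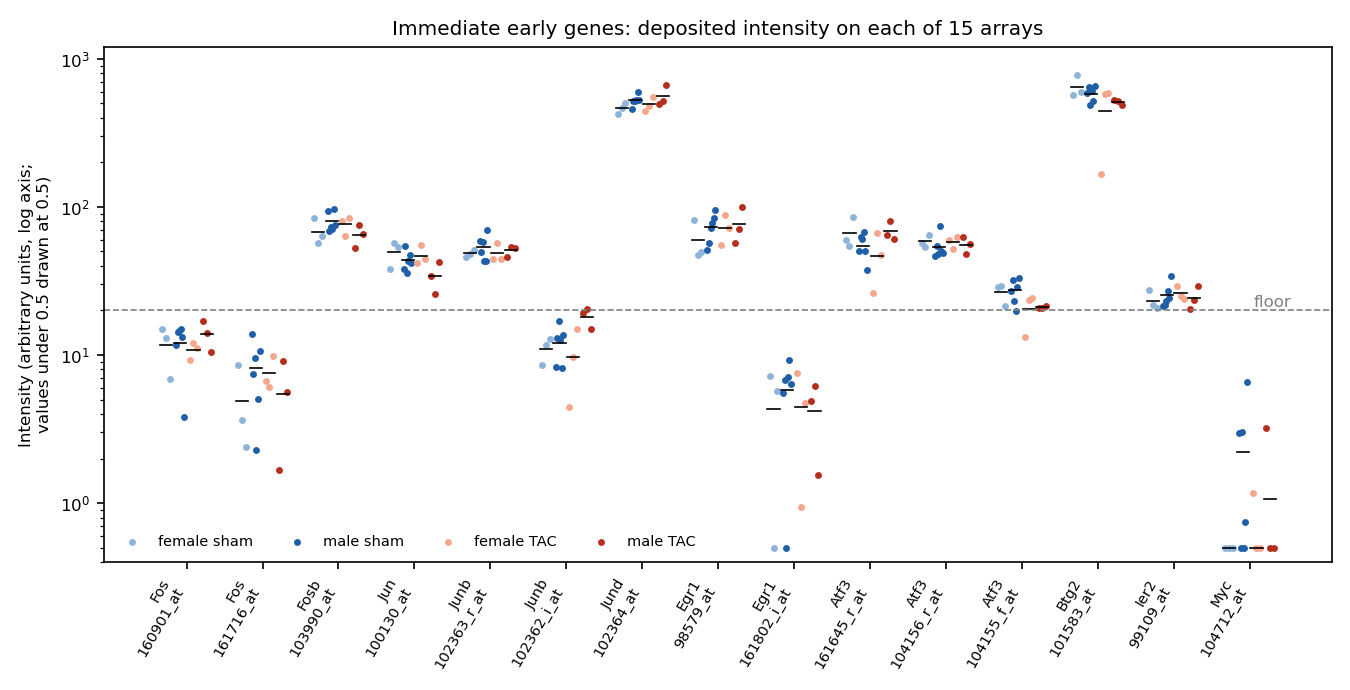
Deposited intensity (arbitrary units, log axis) of the 15 member probe sets on each of the 15 arrays, coloured by group, with a bar at each group mean and a dashed line at the floor of 20. Fos and Myc lie under the floor on every array, and a single female TAC array stands at 165 for Btg2, while the other 14 lie between 489 and 779.

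Intensities are in arbitrary linear units, and any reading under a floor of 20 was raised to 20 for the log2 tests. Array medians lay between 21.3 and 26.7, and between 42.4% and 48.4% of probe sets on an array were below the floor. Female TAC 1 had the lowest median and the most probe sets below the floor. Its median correlation with the other arrays was 0.956, the lowest of the 15, and the highest correlation of any pair of arrays was 0.980. Cardiomyocyte markers were present as the label left ventricle implies, with all 6 of 6 on the array above the floor on every array. Of 3 atrial markers 2 were above the floor on every array as well. The summed intensity of the atrial list varied widely, from 92.2 to 540 in sham and from 170 to 514 in TAC hearts. Of 10 leukocyte markers 6 were above the floor on every array, while Ptprc, Adgre1 and Cd53 were below it on all arrays. The summed intensity of the leukocyte list ranged from 426 to 525 in sham and from 387 to 590 in TAC hearts. Fibroblast markers, 6 of 7 of which were tested, had a median log2 difference of 0.41 with TAC averaged over the sexes, with 5 higher and 1 lower. Limma called 0 of the 6, where it called 0.322% of all tested probe sets. The unadjusted limma p was under 0.05 for 4 of the 6, beside 7.51% of all. Their summed intensity ranged from 1086 to 1506 in sham and from 1438 to 2260 in TAC hearts. Dcn alone had group means between 814 and 1216. The part of other cells in the member values was not tested, and in bulk tissue fewer cells of a type and less RNA per cell cannot be told apart.

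Fos, a leucine zipper partner of Jun in AP-1, gave no signal that could be compared. Its probe set 160901_at read 15.1, 13.1 and 6.84 in female sham hearts, between 3.84 and 14.9 with a median of 13.8 in male sham hearts, 9.29, 12.0 and 11.2 in female TAC hearts and 17.1, 14.2 and 10.5 in male TAC hearts. The second probe set, 161716_at, ranged from 1.68 to 13.9. Every reading of both probe sets was therefore below the floor, so only a bound on Fos exists in each group and no fold change is given. Myc, a growth-promoting factor that pairs with Max, read 0 on 9 arrays and at most 6.58 on the others. Whether Fos and Myc differed between sham and TAC hearts was not detectable with these probe sets.

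Fosb, a close relative of Fos, was above the floor on every array. It read 83.5, 57.4 and 63.3 in female sham hearts and 80.1, 64.0 and 84.8 in female TAC hearts, so the groups overlapped. In males it ranged from 68.8 to 97.4 with a median of 74.7 after sham and read 53.1, 75.3 and 65.6 after TAC. The difference averaged over the sexes was -0.07 ± 0.13 (SE, adjusted p = 0.936 by limma), a 0.954-fold ratio with a 95% interval of 0.793 to 1.15. The male difference of -0.31 ± 0.17 and the female difference of 0.17 ± 0.19 had opposite signs, and the difference between them, 0.48 ± 0.25 (female minus male), did not pass (adjusted p = 1.00 by limma).

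Jun, which pairs with Fos proteins to form AP-1, gave 38.0, 57.4 and 53.5 in female sham and 41.6, 55.0 and 44.2 in female TAC hearts. In males the range was 36.0 to 54.5 with a median of 42.8 after sham, and the TAC arrays read 33.9, 26.0 and 42.3. Of the 3 male TAC arrays 2 were below all male sham arrays and the third was within their range. The male difference was -0.37 ± 0.18 (SE, adjusted p = 0.822 by limma), a ratio of 0.773 with a 95% interval of 0.594 to 1.01. Averaged over the sexes it was -0.22 ± 0.14 (adjusted p = 0.775). Single arrays moved both values. The male difference for Jun was -0.19 without male TAC 5 and -0.54 without male TAC 6, and the averaged difference was -0.13 without male TAC 5 and -0.31 without female sham 1, with no call in any of these fits.

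Junb, a Jun relative that can restrain Jun activity, was read by probe set 102363_r_at at 45.9, 48.1 and 51.4 in female sham and 44.3, 57.2 and 44.2 in female TAC hearts. Male sham hearts ranged from 42.9 to 69.4 with a median of 53.8, and male TAC hearts read 46.1, 53.2 and 53.1, within that range. The averaged difference was -0.03 ± 0.12 (SE, adjusted p = 0.970 by limma). Its other probe set, 102362_i_at, was below the floor on all arrays but male TAC 5, where it read 20.4. That probe set was not tested.

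Jund, the Jun family member that is expressed without stimulation in many tissues, had the smallest spread between arrays. It read 422, 466 and 505 in female sham and 443, 481 and 552 in female TAC hearts. Male sham hearts ranged from 460 to 597 with a median of 524, and male TAC hearts read 491, 519 and 665. The ratio of TAC to sham averaged over the sexes was 1.06, with a 95% interval of 0.913 to 1.22, and the log2 difference was 0.08 ± 0.10 (SE, adjusted p = 0.902 by limma). Its SD between arrays of a group was 0.15 on the log2 scale.

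Egr1, a zinc finger factor induced by growth signals and stretch, had TAC and sham ranges that overlapped in both sexes. It read 81.5, 47.6 and 49.7 in female sham hearts and 55.3, 87.9 and 72.5 in female TAC hearts. Male sham hearts ranged from 51.3 to 95.6 with a median of 74.8, and male TAC hearts read 57.0, 71.0 and 101. The highest TAC array was above the highest sham array in each sex, and the other TAC arrays lay within the sham range. The averaged log2 difference was 0.17 ± 0.18 (SE, adjusted p = 0.879 by limma), with a ratio of 1.13 and a 95% interval of 0.867 to 1.46. A second Egr1 probe set, 161802_i_at, did not exceed 9.25 and was not tested.

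Atf3, a stress-induced repressor of the ATF and CREB family, had 3 tested probe sets that did not move together. Over the 15 arrays, after removal of the group means, the correlation was 0.15 between 161645_r_at and 104156_r_at, -0.28 between 161645_r_at and 104155_f_at, and -0.57 between 104156_r_at and 104155_f_at. Which of them follows the Atf3 transcript was not tested.
For 161645_r_at the values were 60.2, 54.6 and 84.9 in female sham, 26.3, 66.4 and 47.3 in female TAC, 37.4 to 67.4 with a median of 55.6 in male sham, and 64.4, 80.6 and 60.6 in male TAC hearts. Its log2 difference was -0.58 ± 0.28 in females and 0.34 ± 0.25 in males (SE), and the difference between the sexes of -0.92 ± 0.37 had an unadjusted p of 0.0255 and an adjusted p of 1.00 by limma. Without female TAC 1, the lowest array of this probe set, the female value was -0.22, the difference between the sexes -0.56, and the averaged difference 0.06 in place of -0.12.
For 104155_f_at, which lies near the floor, the values were 28.8, 29.3 and 21.6 in female sham, 13.2, 23.7 and 24.4 in female TAC, 19.9 to 33.1 with a median of 27.9 in male sham, and 20.8, 20.8 and 21.4 in male TAC hearts. Its averaged difference was -0.29 ± 0.12 (SE, unadjusted p = 0.0326, adjusted p = 0.592 by limma), and the groups overlapped in both sexes. For 104156_r_at the averaged difference was 0.02 ± 0.12 (adjusted p = 0.977 by limma), and the readings spanned 47.0 to 73.8.

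Btg2, a p53-inducible regulator of proliferation and mRNA decay, differed most, in large part through a single array. It read 569, 779 and 599 in female sham hearts and 165, 574 and 588 in female TAC hearts. In males the range was 489 to 651 with a median of 594 after sham, and the TAC arrays read 522, 516 and 490.1. All 3 TAC arrays of each sex read below the sham mean of that sex, 649 in females and 582 in males. The groups overlapped in both sexes, and the male difference was -0.18 ± 0.29 (SE, adjusted p = 0.973 by limma). The averaged log2 difference was -0.47 ± 0.22 (SE, unadjusted p = 0.0485, adjusted p = 0.654 by limma). Without female TAC 1 it was -0.16 ± 0.11 (adjusted p = 0.801), and the female difference moved from -0.75 ± 0.33 to -0.15 ± 0.17. In the exact permutation test of the averaged effect the unadjusted p was 0.0363, and 0.0292 for Atf3 104155_f_at. The values of 165 and 26.3 for Btg2 and Atf3 161645_r_at came from the same array, the one with the lowest median, and whether its quality played a part was not tested.

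Ier2, a nuclear protein of growth-factor responses, lay just above the floor on all arrays. It read 27.5, 21.6 and 20.8 in female sham, 29.4, 24.9 and 23.8 in female TAC, 21.3 to 34.2 with a median of 23.8 in male sham, and 20.4, 23.5 and 29.3 in male TAC hearts. The averaged difference was 0.06 ± 0.13 (SE, adjusted p = 0.945 by limma). So close to the floor, a fall could be seen only in part.

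**Figure D2:**
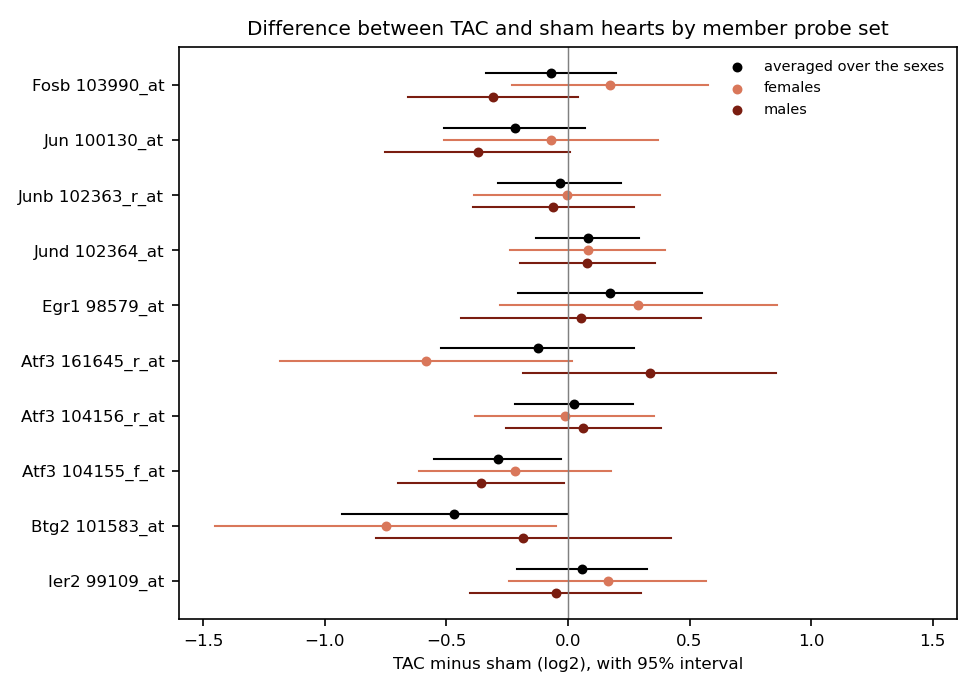
TAC minus sham on the log2 scale for the 10 tested member probe sets, with points for the estimate and lines for the 95% interval from limma, averaged over the sexes (black), in females (orange) and in males (dark red). The highest upper bound is 0.86, for Egr1 in females, and the widest intervals are those of Btg2 in females and in males.

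In females alone 0 of 10 member probe sets were called by limma, where 0.0805% of all tested probe sets were, and 1 of 10 had an unadjusted p under 0.05, Btg2, beside 4.59% of all. In males 0 of 10 were called, where 0.134% of all were, and 1 of 10, Atf3 104155_f_at, had an unadjusted p under 0.05 beside 6.20% of all. The female minus male difference of the TAC effects gave 0 of 10, as for all probe sets (0%), with 1 of 10, Atf3 161645_r_at, at an unadjusted p under 0.05 beside 2.56% of all. Female and male sham hearts gave 0 of 10, again with 0% of all, and 0 of 10 at an unadjusted p under 0.05 beside 4.71%. At the shares called in these contrasts, few or none of any 10 would be. For no tested member probe set were TAC and sham arrays apart without overlap, where 8.88% of all were in females and 3.17% in males. Nor were female and male sham arrays apart for any of them, where 2.79% of all were, nor TAC and sham arrays of both sexes pooled, where 0.416% were. The exact permutation test could not reach 0.05 in females, since 3 arrays against 3 allow no p below 0.10. In males and between the sham groups its smallest possible p was 0.0119, and 0 of 10 members were under an unadjusted 0.05, beside 5.66% and 5.26% of all tested probe sets, shares at which few or none of any 10 would be.

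The intervals set what these arrays leave possible. For the averaged effect, the 95% intervals of the 10 tested probe sets lay between a ratio of 0.525, for Btg2, and 1.46, for Egr1. In females the bounds were 0.366 and 1.82, and in males 0.578 and 1.81. The female lower bound, that of Btg2, rested on female TAC 1. Without that array the Btg2 bound was 0.700, the lowest female bound was 0.593, for Atf3 161645_r_at, and the highest was 2.12, for Egr1. These intervals are not adjusted for the number of probe sets.

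Array-to-array variation differed between the members. Btg2 had an SD within groups of 0.47 on the log2 scale, larger than that of 95.7% of all tested probe sets and of 98.0% of the 501 tested probe sets of nearest mean signal, whose median was 0.18. Of its squared deviations from the group means 59.4% came from female TAC 1, where it stood -1.21 from the mean of its group. On that array 51 of 7453 probe sets were as far below their group mean or further. Egr1 and Atf3 161645_r_at followed with SDs of 0.37 and 0.39, at percentiles 84.6 and 86.2 among probe sets of similar signal, and no single array held over 30.9% of their squared deviations. The other 7 tested probe sets had SDs from 0.15 to 0.27 and percentiles between 21.2 and 51.3 among probe sets of similar signal.

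**Figure D3:**
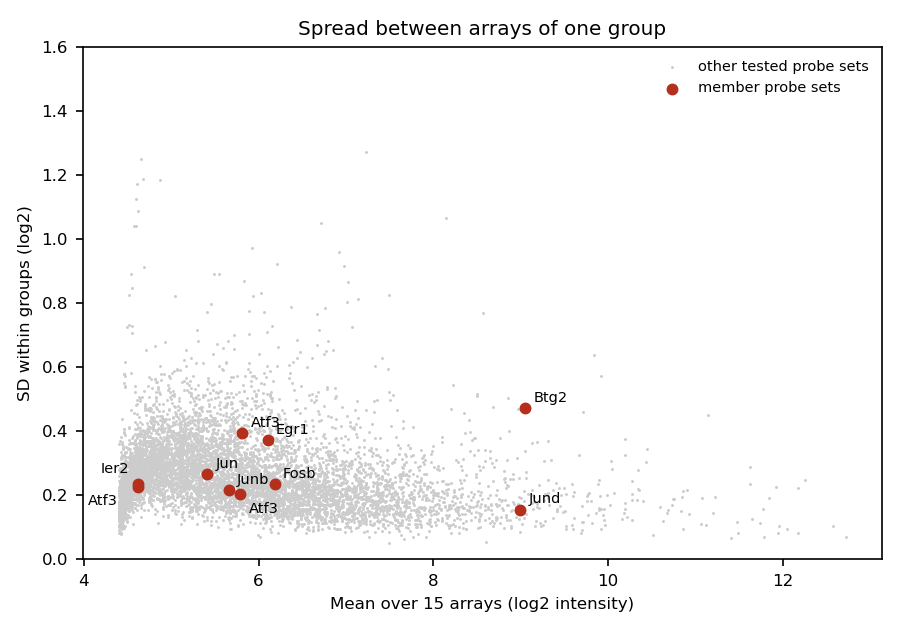
SD between arrays of the same group (log2) against the mean log2 intensity over 15 arrays, for all 7453 tested probe sets (grey) and the 10 member probe sets (red). Btg2 stands above most probe sets of like signal, with 0.47, and Jund has the lowest SD of the members, 0.15.

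Whether the members were high or low together was asked of single arrays, after the group means were removed. With 8 genes above the floor on at least 8 arrays there were 28 pairs, with Atf3 read by 161645_r_at, of which 19 had a Pearson r above 0 and 9 below, with a median of 0.16. The strongest was that of Egr1 and Ier2, with r = 0.71 (permutation p = 0.0125, adjusted over the 28 pairs 0.349) and Spearman rho = 0.73 (permutation p = 0.0116, adjusted 0.326) over 15 arrays. It therefore failed the correction, and no pair passed. Both were high on female sham 1, male sham 9 and male TAC 6, and both were low on male sham 4, male sham 5 and male TAC 4. Without the 2 arrays on which Egr1 lay farthest from its median, female sham 1 and male sham 4, r was 0.58. The 2 genes deviated in opposite directions on female TAC 1, female TAC 2, female TAC 3, male sham 6 and male sham 8. Without female TAC 1, where Egr1 was low and Ier2 high, r was 0.90 and the pair passed (permutation p adjusted over 28 pairs 0.00588 for Egr1 and Ier2). That array went against the relation, and with any other single array left out no pair passed. Ier2 varied only between 20.4 and 34.2, so its part of the relation rests on small differences near the floor.

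**Figure D4:**
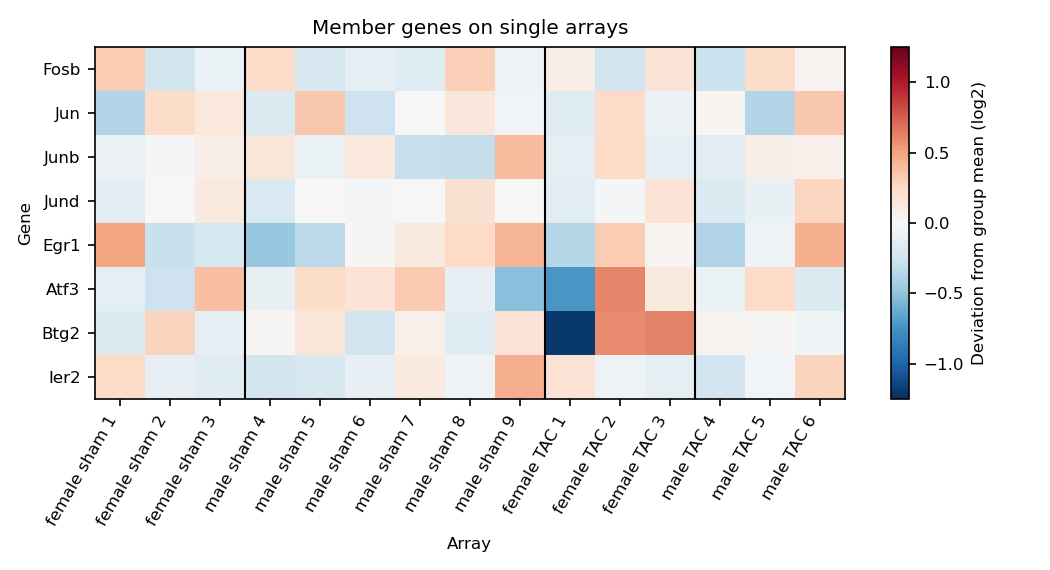
Deviation of each of 8 member genes from its group mean (log2, red above and blue below) on the 15 arrays, ordered by group. Btg2 on female TAC 1, at -1.21, is the farthest, and no array is of one colour for all 8 genes.

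**Figure D5:**
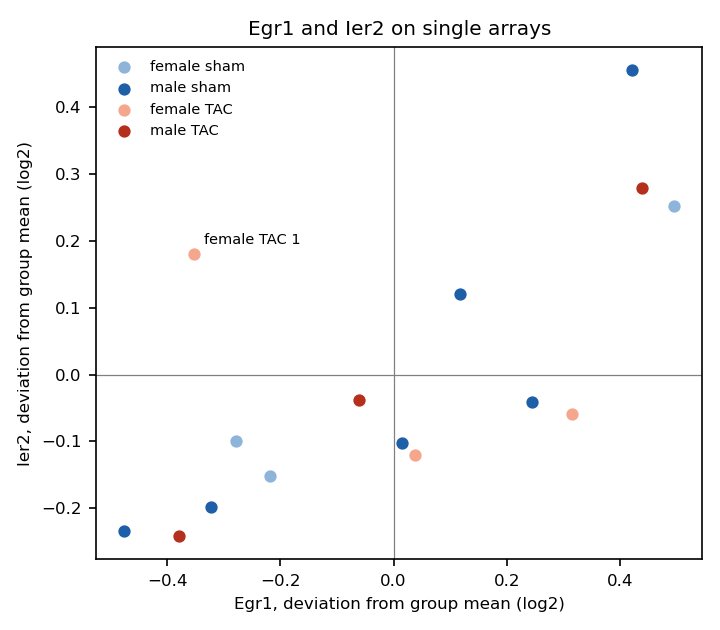
Deviation of Ier2 against deviation of Egr1 from the group means (log2), with a point for each of 15 arrays coloured by group. The arrays follow a rising line with r = 0.71, and female TAC 1 lies apart from it.

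Of single arrays, male TAC 6 had 8 of the 10 tested member probe sets above their group mean, and male sham 6, female TAC 1 and male TAC 4 had 3 of 10. The median deviation of the members on an array lay between -0.15, on female TAC 1, and 0.15, on female TAC 2, where all tested probe sets had medians of -0.12 and 0.10. These 2 arrays thus had the lowest and highest medians for all probe sets as well. The Egr1 pattern over the 15 arrays was shared most closely by Exosc4, Tm2d3, Thra, Bmp4 and Sf3a2, with r of 0.88, 0.87, 0.86, 0.82 and 0.80. These are the 5 highest of all tested probe sets with a gene symbol other than the members, and such values are a description. For Fos, which was not tested, no such list could be made.

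Other immediate early genes were taken from a list of 38, of which 31 were on the array and 25 tested. In this and the other gene lists each gene was read only by its tested probe set of highest mean. Other probe sets of a listed gene were not counted. Of these 15 were higher and 10 lower with TAC averaged over the sexes, limma called 0, and the unadjusted p was under 0.05 for 2. Their median was 0.02, beside -0.03 over all tested probe sets. Ccn1, a matricellular protein and SRF target also known as Cyr61, had the smallest p of the list. Its mean intensity was 22.6 ± 1.1 and 34.2 ± 9.4 in female sham and TAC hearts (SD, n = 3 each), and 20.2 ± 6.3 (SD, n = 6) and 30.2 ± 5.8 (SD, n = 3) in males. The difference of 0.50 ± 0.12 (SE) did not pass (adjusted p = 0.126 by limma). Cebpd, an inflammatory leucine zipper factor, had 0.42 ± 0.17 (adjusted p = 0.553) and Gadd45a, a stress-response gene of growth arrest, 0.34 ± 0.19 (adjusted p = 0.740).

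Of 26 partners and relatives of the members 19 were tested, 8 were higher and 11 lower, limma called 0 and the unadjusted p was under 0.05 for 1, with a median of -0.03. In males limma called 0 and the unadjusted p was under 0.05 for 5 of the 19, beside 6.20% of all tested probe sets, and between the sham groups for 2 of 19, beside 4.71%. Mlx, a Max-like partner, had -0.22 ± 0.09 (adjusted p = 0.592), Mafk, a small Maf protein, 0.43 ± 0.22 (adjusted p = 0.701), and Batf, a leucine zipper partner of Jun, -0.44 ± 0.23 (SE, adjusted p = 0.717 by limma). The female TAC arrays spread widely for Mafk (63.2 ± 32.9) and Batf (143 ± 80.5, mean intensity and SD, n = 3). In the other groups the SD was at most 10.1 for Mafk and 26.8 for Batf. Of 17 upstream regulators, among them serum response factor, its partners and the MAP kinases, 5 were bright enough to test, 4 were higher and 1 lower, with a median of 0.08, and 0 had an adjusted or unadjusted p under 0.05. The 3 of smallest p were Elk1, a cofactor of serum response factor, with 0.18 ± 0.13, Map2k2, a MAP kinase kinase, with 0.18 ± 0.18, and Crem, a CREB relative, with 0.08 ± 0.09 (SE, adjusted p = 0.810, 0.877 and 0.890 by limma).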

How the data were processed

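The deposited table holds intensity values of 12488 probe sets on 15 arrays, which the authors made by steps not given in the sources used here. They are on a linear scale with 8722 exact zeros and no negative values, and were used at the level deposited. The 66 control probe sets were left out. Readings were raised to a floor of 20 (the larger of 20 and the pooled 30th percentile, 11.9) and put on the log2 scale. Probe sets in the top 60% by mean log2, 7453, were tested with limma 3.58.1 in R 4.3.3, in one fit of the 4 groups on all arrays, with Benjamini-Hochberg adjustment over all tested probe sets and a call at 0.05. Symbols came from the platform annotation, updated by Entrez number through RefSeq (GRCm38.p6). Probe sets of related genes can bind several transcripts.

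For single probe sets a two-sided exact permutation test also shuffled sham and TAC among arrays of the same sex. Correlations used deviations from the group means and 100000 permutations of arrays within groups, two-sided. Every member is named; other genes are the 3 of smallest p in each list and any called, and the 5 most like Egr1. Members and lists were chosen with earlier results of these data known. The fit was tested on simulated data with known changes. Replicate numbers of titles are shared by sham and TAC arrays of each sex, except that male sham 7, 8 and 9 have no TAC array of the same number. Same-numbered deviations correlated at 0.244, 0.270 and 0.117 in females and at 0.0641, -0.0828 and 0.0136 in males, so only the female numbers passed 0.1. The number of arrays limits the precision, and no scan date or batch is given. Alternatives were other normalizations, floors, filters and variance models, array weights, fits on the compared groups alone, the replicate block and leaving out each array.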

Additional observations from a re-analysis of the deposited data

Results flagged for a closer look

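Atf3 probe set 104156_r_at read 73.8 on male sham 7, far from the other 5 male sham arrays, which lay between 47.0 and 54.1. Chance marks about 1 in 20 groups in this way, and 9 probe sets were examined. On the same array the Atf3 probe set 104155_f_at had its lowest male sham value, 19.9.

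Atf3 probe set 161645_r_at was below the female sham mean intensity of 66.6 on all 3 female TAC arrays and above the male sham mean of 54.9 on all 3 male TAC arrays. On the log2 scale this held for only 2 of the 3 female TAC arrays, since female TAC 2, at 66.4, was above the geometric mean of the female sham arrays, 65.3. The difference of the effect, female minus male, was -0.92 ± 0.37 (SE), which did not pass when tested directly (adjusted p = 1.00 by limma). The Atf3 probe set 104156_r_at gave -0.08 ± 0.23 and 104155_f_at gave 0.14 ± 0.25 for the same difference.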

How the results depend on the processing

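No member probe set was called in any of the 5 contrasts under any of the 12 other settings run for it or without any of the 15 arrays. Few of all tested probe sets were called either. Across the limma fits their count was 2 to 36 in females and 3 to 16 in males. It was 0 to 2 between the sham groups and 0 for the difference between the sexes. The exact permutation test called 0 of all in each contrast it covered. The 0 among the members therefore says little about them. With the replicate block, in both sexes or in females only (the latter chosen after seeing the data), 0 member probe sets were called, and it changed no call of a member. For the averaged effect over all tested probe sets the count of calls was 24 and moved to 45 with quantile normalization, 40 with median centring, 12 with the lower floor, 13 without the filter, 68 with array weights, 8 with the replicate block and 12 to 29 without an array at a time.

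Signs of small differences changed. For the averaged effect Fosb was 0.0155 with array weights and Junb 0.00413 with quantile normalization. In females Jun was 0.00161, Junb 0.0627 and Atf3 104156_r_at 0.0374 with quantile normalization, and with median centring Junb was 0.0350 and Atf3 104156_r_at 0.0267, the latter 0.0430 with array weights. In males Ier2 was 0.128 with the replicate block. The difference between the sexes became -0.0188 for Junb with array weights, -0.0655 for Jund and -0.0254 for Egr1 with the replicate block, and -0.0621 and -0.0131 for Atf3 104155_f_at with the lower floor and with the offset. The cause was not tested.

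Without an array at a time, signs also changed. For the averaged effect the ranges were -0.13 to 0.011 for Fosb, -0.095 to 0.0059 for Junb, -0.28 to 0.058 for Atf3 161645_r_at, -0.018 to 0.076 for Atf3 104156_r_at and -0.013 to 0.12 for Ier2. In females they were -0.25 to 0.047 for Jun, -0.13 to 0.057 for Junb, -0.0046 to 0.15 for Jund and -0.074 to 0.069 for Atf3 104156_r_at. In males they were -0.12 to 0.017 for Junb, -0.052 to 0.17 for Jund, -0.17 to 0.24 for Egr1, -0.0230 to 0.165 for Atf3 104156_r_at and -0.19 to 0.070 for Ier2. For female minus male they were -0.067 to 0.12 for Junb, -0.085 to 0.13 for Jund, -0.18 to 0.00935 for Atf3 104156_r_at, -0.00565 to 0.23 for Atf3 104155_f_at and -0.88 to 0.037 for Btg2, and between the sham groups -0.12 to 0.11 for Atf3 104155_f_at.

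The number of called pairs of members was 0 to 1 without an array at a time, with 1 without female TAC 1. The r of Egr1 and Ier2 was 0.64 with quantile normalization, 0.67 with median centring, 0.71 with the lower floor, 0.70 with the offset and 0.64 to 0.90 without an array. Signal near the floor limits Fos, Myc, Ier2 and Atf3 104155_f_at, and array weights moved the averaged difference of Btg2 to -0.22.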
